A study of Rattus norvegicus with 6 samples.

Results

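Macrophages and other leukocytes are minor residents of the heart, and a set of 37 of their genes was followed in cultures of neonatal rat ventricular myocytes made to express Tbx18. The set was chosen by symbol, for known roles in macrophages and leukocytes, and all 37 symbols were found among the 17089 genes of the deposited table. Of these, 33 had a mean of at least 10 normalized counts over the 6 libraries and were tested, against 11230 genes tested in all. The 4 left out were Marco, Cx3cr1, S100a8 and S100a9.

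There were 3 Tbx18 libraries, from cells given the adenovirus Ad-Tbx18-IRES-GFP, which makes Tbx18 and GFP from the same transcript, and 3 GFP libraries, from cells given Ad-GFP, which makes GFP alone. Both groups were primary ventricular myocytes of Sprague Dawley rats of postnatal day 1 to 3, cultured on fibronectin in a M199-based medium whose fetal bovine serum was cut to 2% on day 3, after 10% before it, transduced on the day of isolation and collected on day 4 after gene transfer, and the column names of both groups carry the words unpace and Control. The study compared cells converted towards pacemaker cells by Tbx18, a T-box factor of the embryonic sinus node region, with ventricular myocytes. The labels name no step that selects myocytes, so whatever other cells the ventricles release may be in the dish, and nothing states that the replicates came from separate cell isolations, so p-values measure only the spread between these libraries. Since these are bulk samples, fewer cells of a type and less RNA per cell cannot be told apart.

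Cardiac macrophages derive from yolk sac, fetal liver and bone marrow precursors. Their identity depends on the transcription factor PU.1, encoded by Spi1, and their survival on the receptor encoded by Csf1r, whose ligands CSF1 and IL-34 are made largely by stromal and epithelial cells. Resident macrophages clear dead cells and debris with scavenger, Fc and complement receptors, and use the C1q chains and lysosomal proteases in that work. In the heart they also contact conducting myocytes and fibroblasts.

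The libraries held 17074483 to 19800300 gene-assigned reads, recovered as whole numbers from the deposited normalized counts. Tbx18 was at 6004, 6236 and 5937 normalized counts in the Tbx18 libraries and at 312, 268 and 296 in the GFP libraries, so each library matched its label. The deposited counts summed to less in Tbx18 than in GFP, 17273600 to 17494700 against 20141900 to 21563100, and results that depend on the scaling are given as such. Values in 3 libraries are given in the order of replicates 1, 2 and 3, levels are normalized counts, and fold changes are Tbx18 over GFP.

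Promoter sequence is shown first for 5 of the 7 genes called different between the groups, because PU.1 is a factor that many macrophage genes share and its recognition core is short enough to be read in the sequence. RefSeq promoters of rat build GRCr8 were found for 24 of the 37 genes, Csf1 and Fcgr2b not being among them. Each line gives the 250 bases before the annotated start, 5′ to 3′ on the strand of the gene, with every GAGGAA on either strand in capitals (TTCCTC where it lies on the opposite strand).
Csf1r (chr18:56834129-56834378, plus strand): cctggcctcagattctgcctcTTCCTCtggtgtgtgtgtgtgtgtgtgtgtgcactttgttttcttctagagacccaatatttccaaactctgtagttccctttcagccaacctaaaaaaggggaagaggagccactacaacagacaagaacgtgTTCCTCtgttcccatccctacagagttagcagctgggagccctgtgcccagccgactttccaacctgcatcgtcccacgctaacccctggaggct
Mrc1 (chr17:82157475-82157724, plus strand): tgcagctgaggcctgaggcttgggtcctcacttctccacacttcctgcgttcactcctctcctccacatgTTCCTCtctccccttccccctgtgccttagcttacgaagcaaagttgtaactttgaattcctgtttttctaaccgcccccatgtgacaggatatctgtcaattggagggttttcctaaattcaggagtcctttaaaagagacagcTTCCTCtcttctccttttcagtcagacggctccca
Cd68 (chr10:54882442-54882691, minus strand): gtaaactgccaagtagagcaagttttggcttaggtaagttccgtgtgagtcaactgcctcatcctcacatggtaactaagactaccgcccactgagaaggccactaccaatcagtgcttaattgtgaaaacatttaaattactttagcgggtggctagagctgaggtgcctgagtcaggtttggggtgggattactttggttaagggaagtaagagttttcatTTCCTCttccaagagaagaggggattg
Gpnmb (chr4:79340878-79341127, plus strand): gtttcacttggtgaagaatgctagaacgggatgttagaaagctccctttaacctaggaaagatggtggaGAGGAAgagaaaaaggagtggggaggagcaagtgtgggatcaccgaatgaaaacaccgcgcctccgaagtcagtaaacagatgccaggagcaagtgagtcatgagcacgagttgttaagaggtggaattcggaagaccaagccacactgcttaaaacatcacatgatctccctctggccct
F13a1 (chr17:28020947-28021196, plus strand): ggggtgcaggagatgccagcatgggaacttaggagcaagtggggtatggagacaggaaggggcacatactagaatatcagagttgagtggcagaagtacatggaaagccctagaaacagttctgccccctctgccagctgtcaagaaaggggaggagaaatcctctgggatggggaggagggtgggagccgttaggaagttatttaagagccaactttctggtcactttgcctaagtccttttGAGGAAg

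Csf1r and Mrc1 each held 2 of these cores, beginning 229 and 95 bases before the start in Csf1r and 180 and 35 bases before it in Mrc1. Cd68, Gpnmb and F13a1 held 1 each, 27, 181 and 7 bases before their starts. Over the 24 genes with a sequence, 18 had at least 1 core in this window, or 75.0%, against 23.3% of all 33469 promoters of the table and 22.9% of the 8356 promoters of genes tested here. This core was picked after the sequences had been read, from 7 forms searched on both strands. Of the forms that contain it, and so overlap it, GAGGAAG was in 12 of the 24, against 10.2% of all promoters and 11.1% of those of tested genes. AGAGGAA was in 10 (41.7%), against 8.8% and 7.3%, and GAGGAAGT in 4 (16.7%), namely Cd37, Cd53, Ctss and Fcgr3a, against 2.0% and 2.2%. The E-box CATGTG was in 5 (20.8%), against 12.1% of all promoters and 6.9% of those of tested genes, and the AP-1 motif TGANTCA in 3 (12.5%), against 6.3% and 4.4%. The C/EBP motif TTGCGCAA was in 0 of the 24, against 0.1% and 0.2%. F13a1, which was lower in Tbx18, and Csf1r and Mrc1, which were higher, all held the core. A match is a run of letters and not a measured binding site.

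The GFP libraries differed among themselves in these genes. Of the 33 tested genes, 29 had their highest GFP value in GFP replicate 2 and 0 had their lowest there, while GFP replicate 1 was lowest for 22 and GFP replicate 3 for 11. Over all 11230 genes tested, GFP replicate 2 was the highest of the GFP libraries for 36.1% and the lowest for 31.5%. The 4 exceptions were Csf1, highest in GFP replicate 1, and Fcgr2b, F13a1 and Ncf1, highest in GFP replicate 3. The count of 29 was the same under upper-quartile, equal-read and quantile scaling and under the edgeR and DESeq2 scalings.

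**Figure D1:**
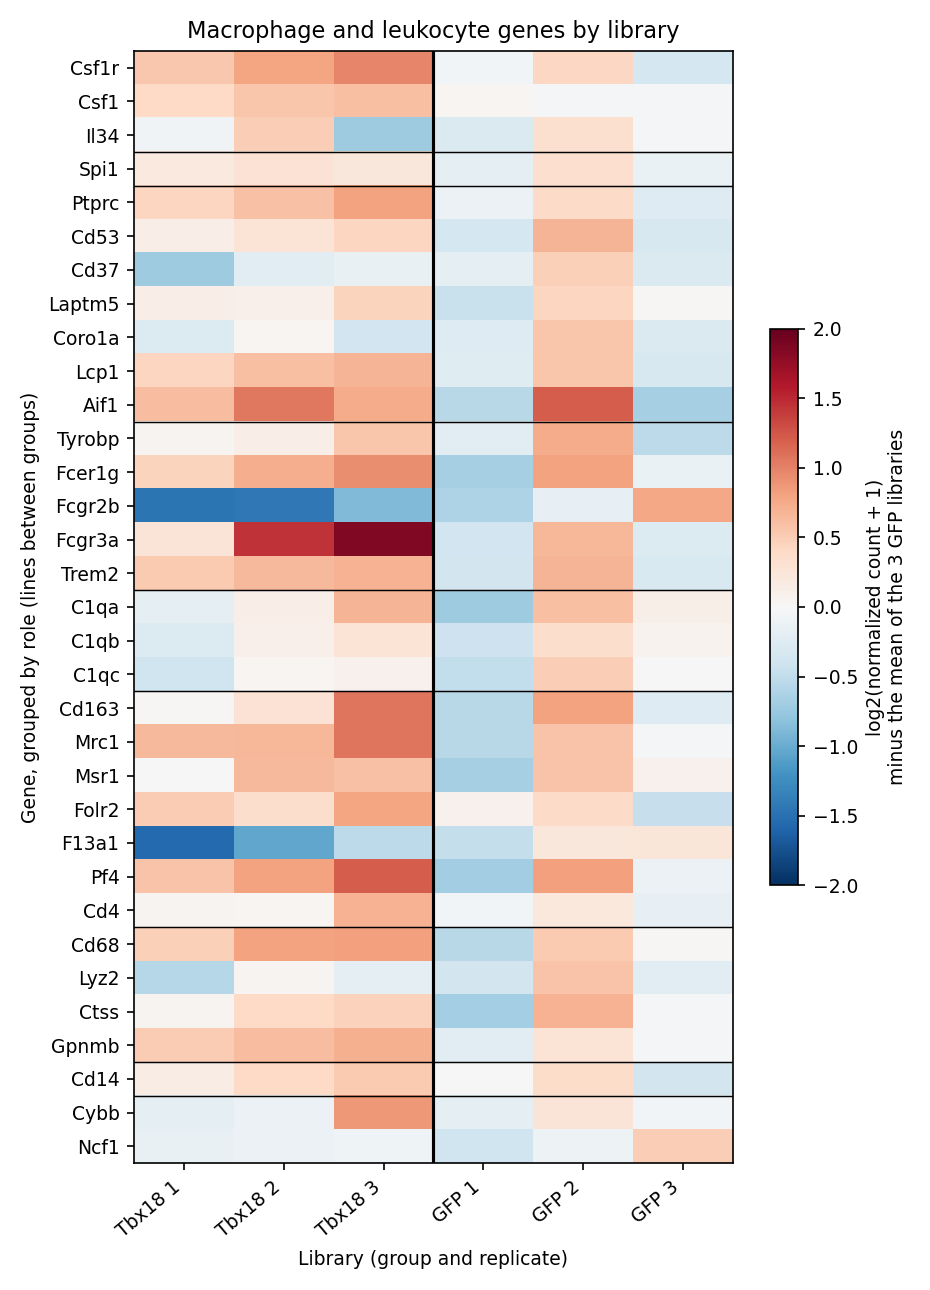
Level of each of the 33 tested genes in each library, as log2(normalized count + 1) minus the mean of the 3 GFP libraries, with the Tbx18 libraries left of the black line and the GFP libraries right of it; red is above the GFP mean and blue below it. GFP replicate 2 is red in nearly every row, GFP replicate 1 mostly blue, and the Tbx18 libraries are mostly red apart from Fcgr2b, F13a1 and a few others.

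The highest GFP library exceeded the lowest by a median of 1.87-fold over the tested genes, and by at least 2-fold for 14 of them. The range ran from 1.05-fold for Csf1 to 3.90-fold for Aif1. Within Tbx18 the same ratio had a median of 1.37 and reached 2 for 5 genes. The SD of the log2 values within a group had a median of 0.24 in Tbx18 and 0.49 in GFP over these genes, beside 0.10 and 0.17 over all genes tested. Genes with few reads vary more, so the same was read for genes of like abundance: between 46.8 and 198 normalized counts, the 17 members had a median SD of 0.26 in Tbx18 and 0.58 in GFP, and all 1826 tested genes of that range 0.16 and 0.26.

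The Tbx18 libraries also had an order, of smaller size. Tbx18 replicate 3 was the highest of its group for 27 of the 33 genes and Tbx18 replicate 1 the lowest for 28, against 37.2% and 27.1% of all genes tested. The 7 pan-leukocyte genes, taken as a sum, stood at 694, 779.7 and 821 normalized counts in Tbx18 and at 477, 871 and 494 in GFP. GFP replicate 2 was thus above every Tbx18 library in this sum and the other GFP libraries below every one of them.

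Between the groups, 5 of the 33 genes were called higher in Tbx18 and 2 lower, at a limma adjusted p under 0.05 over all genes tested. The higher ones were the growth factor Csf1, its receptor Csf1r, the mannose receptor Mrc1 and the lysosomal glycoproteins Cd68 and Gpnmb, and the lower ones were the inhibitory Fc receptor Fcgr2b and the clotting factor subunit F13a1. Among all genes tested, 22.5% were called higher and 23.5% lower, so the members' shares lay below both backgrounds. The groups did not overlap, with Tbx18 above, for 5 members and, with Tbx18 below, for 2, against 28.6% and 28.6% of all genes tested. The fold change was above 0 for 25 members and below 0 for 8. The median log2 fold change was 0.31 over the members and 0.01 over all genes tested. These medians were 0.04 and -0.01 under quantile normalization, and 0.14 and 0.01 without GFP replicate 1. Without GFP replicate 2 they were 0.62 and 0.004, so the size of the members' median depended on the scaling and on single libraries. Among genes that were not called, C1qb, Cd163, Cd4, Cd53, Cybb, Laptm5, Spi1 and Tyrobp had a fold change below 0 under quantile normalization and above 0 under the other scalings. C1qc, Coro1a, Il34, Lyz2 and Ncf1 were above 0 under equal recovered reads alone, a scaling that moved all genes upwards.

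**Figure D2:**
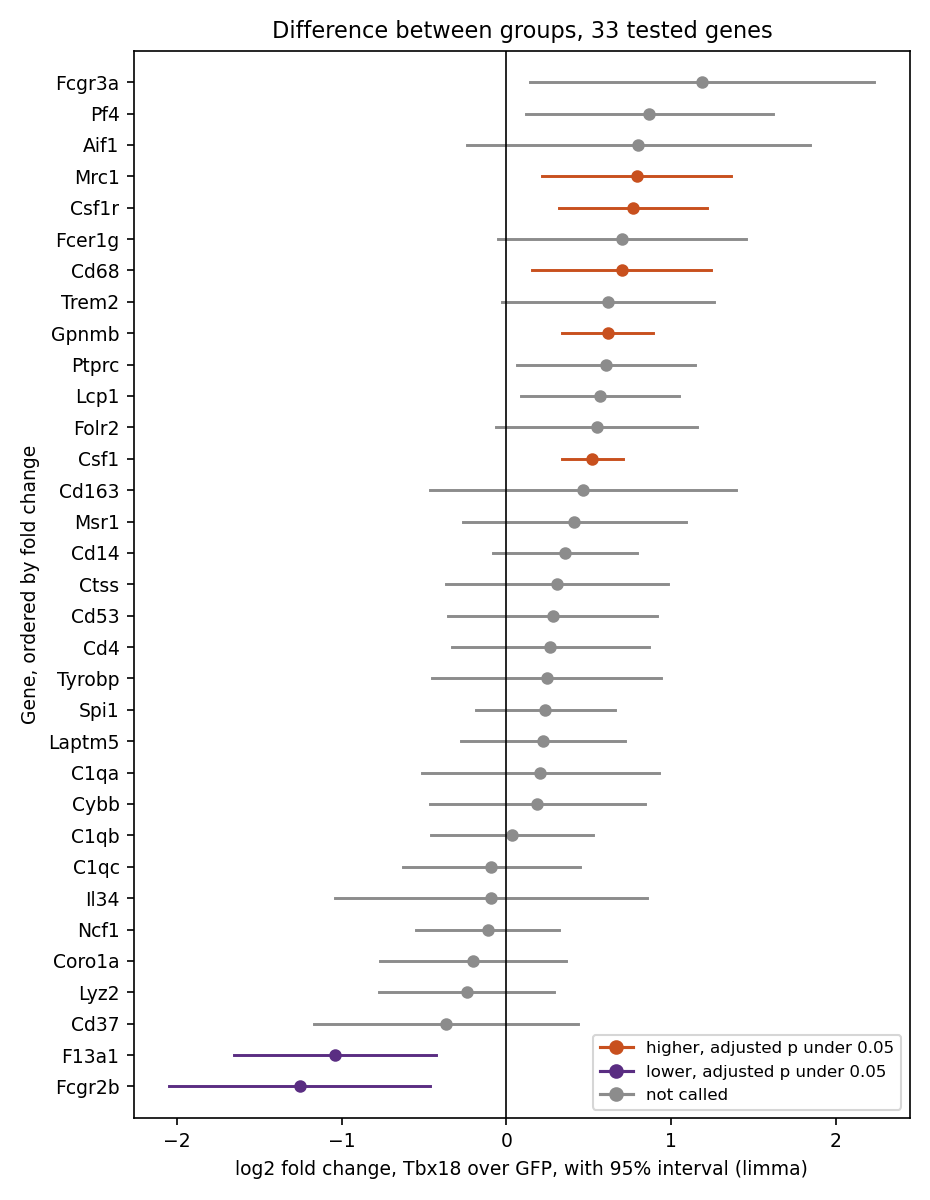
Log2 fold change of Tbx18 over GFP for the 33 tested genes, ordered by size, with 95% intervals from the limma fit; orange genes were called higher, purple genes lower and grey genes not called. The called genes run from -1.25 for Fcgr2b to 0.79 for Mrc1. Genes with a larger estimated rise, such as Fcgr3a and Pf4, are grey and have wider intervals than the genes called higher.

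Those counts depended on single libraries. Without GFP replicate 2, 14 members were called higher, against 21% of all genes tested in that fit. Without GFP replicate 3 the count of higher members was 3, against 20.5% of all genes. It was 3 without Tbx18 replicate 2, against 17.5% of all genes, and 2 without Tbx18 replicate 3, against 17% of all genes, so leaving out either of these Tbx18 libraries lowered the calls over all genes as well. With libraries scaled to equal recovered reads, 14 members were called higher, against 42.6% of all genes tested; under that scaling the median change in log2 was 0.27 over all genes and 0.57 over the members, and all calls split into 4791 higher and 1350 lower in place of 2525 and 2639. Csf1, Gpnmb and F13a1 were the 3 of the 7 called genes that stayed called in all 15 alternatives.

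**Figure D3:**
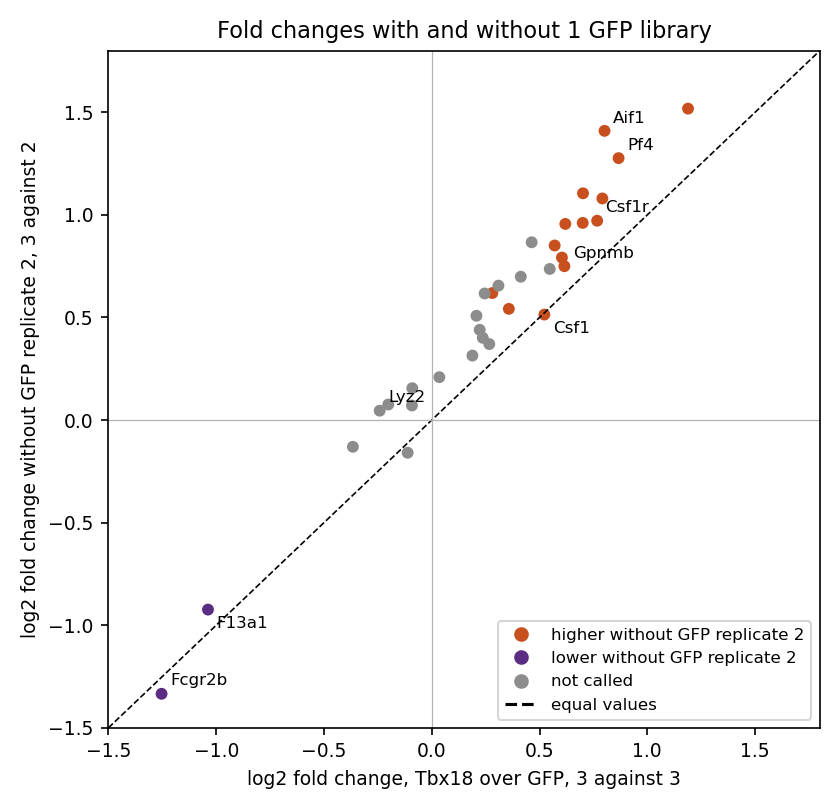
Log2 fold change of each tested gene in the full comparison of 3 Tbx18 with 3 GFP libraries (horizontal axis) and without GFP replicate 2 (vertical axis); the dashed line marks equal values, and colour shows the call without that library. Most points lie above the line, as they must for genes whose highest GFP value is in that library, and the 14 orange points are the genes called higher.

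The receptor and its ligands were read in turn. Csf1r, the tyrosine kinase receptor that macrophages need to survive, was at 236, 279.7 and 319 normalized counts in the Tbx18 libraries and at 155, 215 and 127 in the GFP libraries. Every Tbx18 library was above every GFP library, the gap between the nearest pair being small beside the GFP range. The mean was 278 ± 41.5 in Tbx18 and 166 ± 45.04 in GFP (SD, n = 3 each), a 1.68-fold rise (limma adjusted p = 0.0110; log2 fold change 0.77 with an SE of 0.20). The call was lost without Tbx18 replicate 3, where adjusted p was 0.0544 in limma.

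Csf1, the main ligand, was at 2249.7, 2497 and 2588 in Tbx18 and at 1753, 1679.5 and 1665 in GFP. Its GFP values lay close together, within 1.05-fold, and the Tbx18 values stood clear of them. It rose 1.44-fold (limma adjusted p = 0.000766; log2 fold change 0.52 with an SE of 0.08), and the log2 fold change stayed between 0.48 and 0.79 over the alternatives. The fibroblast marker list, whose cells are among the known sources of CSF1, moved with it. In that list 9 of 10 genes were called higher, against 22.5% of all genes tested, with a median log2 fold change of 1.19. The part of fibroblasts in the rise of Csf1 was not tested. Il34, the second ligand, had 10.1, 15.4 and 6.14 counts in Tbx18 and 8.51, 13.6 and 10.4 in GFP. The groups overlapped, and the interval of its log2 fold change, -1.04 to 0.85, was too wide to place it.

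**Figure D4:**
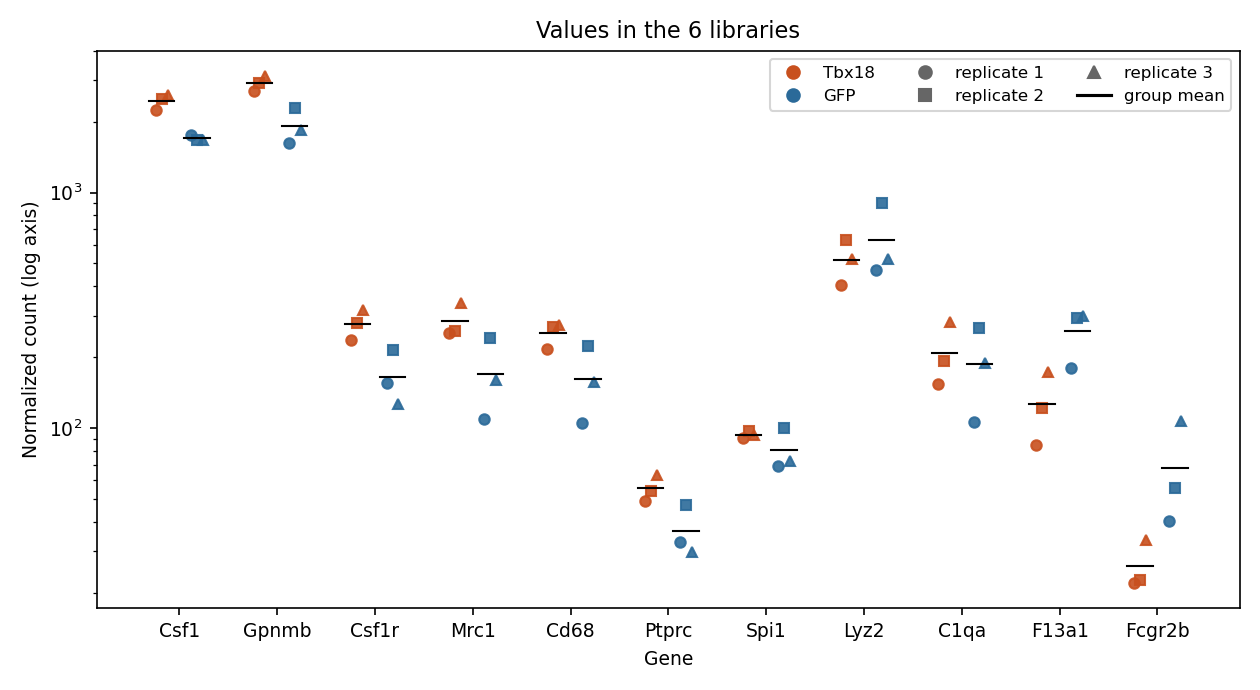
Normalized counts (log axis) of 11 genes in the 6 libraries, Tbx18 left and GFP right for each gene, with a symbol for each replicate number and a black line at the group mean. GFP replicate 2 (blue square) tops its group for Gpnmb, Csf1r, Mrc1, Cd68, Ptprc, Spi1, Lyz2 and C1qa, whereas the GFP points of Csf1 nearly coincide and Fcgr2b and F13a1 peak in GFP replicate 3.

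The genes that mark leukocytes as such did not pass the test. Spi1, the PU.1 gene, was at 91.1, 97.3 and 93.04 counts in Tbx18 and at 69.1, 100.0 and 72.5 in GFP. The Tbx18 libraries were close to one another, and GFP replicate 2 stood above all of them (log2 fold change 0.24, limma adjusted p = 0.327). Spi1 was called higher in 1 alternative, equal recovered reads (log2 fold change 0.50, limma adjusted p = 0.0403). Ptprc, which encodes CD45, the surface phosphatase of nearly all leukocytes, was at 48.8, 54.3 and 63.2 in Tbx18 and at 32.98, 46.9 and 29.9 in GFP. Here the groups did not overlap, but the lowest Tbx18 and the highest GFP value were almost equal (limma adjusted p = 0.0650; log2 fold change 0.60 with an SE of 0.24). It was called in 3 alternatives, which were upper-quartile scaling, equal recovered reads and the fit without GFP replicate 2. Under quantile normalization its log2 fold change was 0.12 (limma adjusted p = 0.686).

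The other pan-leukocyte genes followed the GFP order with differing strength. Aif1, an actin-binding protein widely used to stain macrophages, was at 32.2, 44.1 and 35.1 in Tbx18 and at 13.8, 49.4 and 12.7 in GFP, so that its GFP replicate 2 exceeded all Tbx18 libraries while the other GFP libraries were below all of them. Lcp1, the actin bundler L-plastin, was at 335, 378 and 397 in Tbx18 and at 211, 367 and 198 in GFP and missed the threshold narrowly (log2 fold change 0.57, limma adjusted p = 0.0525). It was called in 5 of the 15 alternatives, DESeq2 among them, with adjusted p from 0.00144 to 0.16 over all of them. The tetraspanin Cd53 and the lysosomal membrane gene Laptm5 averaged 70.4 and 146 counts in Tbx18 against 61.1 and 128 in GFP. Coro1a, an actin regulator of leukocytes, averaged 74.00 in Tbx18 and 87.99 in GFP, and the tetraspanin Cd37 averaged 12.2 in Tbx18 and 16.2 in GFP. None of these 4 passed the test. Cd37 was called lower in 1 alternative, quantile normalization (log2 fold change -1.20, limma adjusted p = 0.0226). Without GFP replicate 2, Ptprc, Cd53, Lcp1 and Aif1 were called higher. Aif1 then had a log2 fold change of 1.41 in place of 0.80, Lcp1 0.85, Ptprc 0.79 and Cd53 0.62 in place of 0.28. Such a rise had to follow, as that library was the highest of GFP for all 7 pan-leukocyte genes. Without GFP replicate 3 the values were 0.47 for Aif1, 0.41 for Lcp1, 0.48 for Ptprc and 0.12 for Cd53, and none was called.

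Among the Fc receptors and their adaptors, Fcgr3a had the highest and Fcgr2b the lowest log2 fold change of the tested members. Of these, only Fcgr2b was called. The top rank did not hold under quantile normalization, where Gpnmb at 0.77 stood above Fcgr3a at 0.49. Fcgr2b, the receptor for IgG that restrains activation, was at 22.1, 22.5 and 33.4 counts in Tbx18 and at 40.4, 55.6 and 107 in GFP. All Tbx18 libraries were below all GFP libraries, and GFP replicate 3 stood far above the rest. The level fell 2.60-fold (limma adjusted p = 0.0161; log2 fold change -1.25 with an SE of 0.35). That call was lost without Tbx18 replicate 1 or Tbx18 replicate 2, with a largest limma adjusted p of 0.0537 over the alternatives.

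Fcgr3a, an activating receptor for IgG, was at 13.8, 32.8 and 43.9 in Tbx18 and at 8.51, 18.5 and 9.21 in GFP. Its Tbx18 values spread 3.18-fold, the widest in that group, and Tbx18 replicate 1 lay below GFP replicate 2. The log2 fold change of 1.19 was not called by limma (adjusted p = 0.0615). Fcgr3a was called in 6 alternatives, edgeR and DESeq2 on recovered reads among them. Under quantile normalization its log2 fold change was 0.49 (limma adjusted p = 0.416). Fcgr2b and Fcgr3a are members of a family of similar genes, so reads may be shared between their counts, which are uncertain to that extent.

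Tyrobp and Fcer1g encode the small signalling adaptors that carry many of these receptors. Tyrobp was at 73.6, 77.9 and 105 in Tbx18 and at 60.6, 119.8 and 49.5 in GFP, with GFP replicate 2 the highest of all 6 libraries. Fcer1g averaged 90.4 in Tbx18 and 59.9 in GFP, and Trem2, a lipid-sensing receptor that signals through the Tyrobp product, was at 59.8, 65.6 and 67.6 in Tbx18 and at 31.9, 66.7 and 33.4 in GFP. For Trem2 the 3 Tbx18 libraries agreed within 1.13-fold and lay, apart from GFP replicate 2, well above GFP. Fcer1g and Trem2 had log2 fold changes of 0.70 and 0.62 without passing the test. They were called without GFP replicate 2, at 1.11 and 0.96, and under equal recovered reads, at 0.96 and 0.88. Under quantile normalization they were at 0.34 and 0.16 and were not called.

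The chains of C1q, the complement component that starts the classical pathway and that tissue macrophages produce, did not pass the test. C1qa was at 154, 193 and 281 counts in Tbx18 and at 106, 267 and 189.9 in GFP. C1qb was at 118, 153 and 173 in Tbx18 and at 106, 182 and 149.6 in GFP, and C1qc at 133, 179 and 185 in Tbx18 and at 124, 246 and 174 in GFP. In all 3 genes GFP replicate 1 was the lowest and GFP replicate 2 the highest of the GFP libraries, as Tbx18 replicate 1 was the lowest and Tbx18 replicate 3 the highest of the Tbx18 libraries. The log2 fold changes of 0.21, 0.04 and -0.09 had intervals of -0.51 to 0.92, -0.46 to 0.53 and -0.63 to 0.45.

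Scavenger receptors and genes of resident macrophages were mixed. Mrc1, the mannose receptor of tissue macrophages, was at 254, 257 and 339.7 in Tbx18 and at 109.6, 242 and 159.9 in GFP. Every Tbx18 library exceeded every GFP library, and the GFP values ran over 2.21-fold. The mean was 284 ± 48.6 in Tbx18 and 171 ± 66.9 in GFP (SD, n = 3 each), a 1.66-fold rise (limma adjusted p = 0.0294; log2 fold change 0.79 with an SE of 0.26). It was not called without GFP replicate 3, without Tbx18 replicate 2, without Tbx18 replicate 3 or after quantile normalization, with limma adjusted p up to 0.119.

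F13a1, the catalytic subunit of a clotting factor that resident macrophages express, went the other way. It was at 84.7, 122 and 174 counts in Tbx18 and at 179.8, 294 and 298 in GFP, and the highest Tbx18 library was just below the lowest GFP library. The level fell 2.03-fold (limma adjusted p = 0.0118; log2 fold change -1.04 with an SE of 0.27). It remained called in every alternative, with adjusted p reaching 0.0498 in limma.

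Pf4, a chemokine of platelets and of resident macrophages, was at 174, 205 and 271 in Tbx18 and at 71.3, 206 and 107 in GFP. GFP replicate 2 lay within the Tbx18 range and the other GFP libraries below it (limma adjusted p = 0.0580; log2 fold change 0.87 with an SE of 0.33). It was called in 5 of the 15 alternatives, DESeq2 and upper-quartile scaling among them, and its adjusted p ran from 0.00431 to 0.198 over all of them. Cd163, the haemoglobin scavenger receptor, was at 21.2, 25.6 and 44.8 in Tbx18 and at 13.8, 37.05 and 17.3 in GFP and did not pass the test. Msr1, a scavenger receptor for modified lipoproteins, averaged 119 in Tbx18 and 93.1 in GFP. Folr2, a folate receptor of resident macrophages, averaged 47.7 in Tbx18 and 33.01 in GFP, and Cd4, which rat macrophages carry as well as helper T cells, averaged 38.3 in Tbx18 and 31.1 in GFP. None of the 3 was called, with limma adjusted p-values of 0.289, 0.127 and 0.439. Folr2 was called higher in 1 alternative, equal recovered reads (limma adjusted p = 0.0308). Its log2 fold change was 0.55 in the full comparison and 0.04 under quantile normalization.

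Some genes of the set were at or near the limit of detection. Marco, a scavenger receptor best known from alveolar and splenic macrophages, had 0 reads in all 6 libraries, which allows at most 2.63 to 3.70 normalized counts per library. Cx3cr1, the fractalkine receptor, averaged 3.44 in Tbx18 and 5.12 in GFP. S100a8 and S100a9 encode calprotectin, which is abundant in neutrophils and early monocytes. S100a8 was at 2.76, 0 and 3.51 in Tbx18 and at 0, 3.70 and 5.75 in GFP, and S100a9 at 0, 0 and 0 in Tbx18 and at 1.06, 0 and 0 in GFP. The limit given for Marco covers counting error only, and no difference was detectable at such depth.

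Of the lysosomal genes, Cd68, the glycoprotein most used to mark macrophages, was at 216, 269 and 274 in Tbx18 and at 105, 222 and 158 in GFP. GFP replicate 2 reached into the Tbx18 range. The rise was 1.57-fold (limma adjusted p = 0.0382; log2 fold change 0.70 with an SE of 0.24), and it was not called without GFP replicate 1, GFP replicate 3, Tbx18 replicate 2 or Tbx18 replicate 3, or after quantile normalization, with limma adjusted p up to 0.123.

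Gpnmb, a membrane glycoprotein of lysosome-rich macrophages that other cell types express too, was at 2708, 2911 and 3125 counts in Tbx18 and at 1617, 2288 and 1850.2 in GFP. The groups did not overlap. It rose 1.52-fold (limma adjusted p = 0.00294; log2 fold change 0.62 with an SE of 0.12) and stayed called throughout. Lyz2, the lysozyme gene of macrophages and granulocytes, was at 406, 626 and 525 in Tbx18 and at 467, 900.3 and 525 in GFP, with GFP replicate 2 the highest of all 6 libraries. Its count may share reads with related lysozyme genes. It was not called (log2 fold change -0.24, limma adjusted p = 0.432). Ctss, the cathepsin that prepares antigen for MHC class II, averaged 132 in Tbx18 and 114 in GFP, a difference that did not pass the test.

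Cd14, the co-receptor for bacterial lipopolysaccharide, was at 179, 213 and 233 in Tbx18 and at 161, 209 and 125 in GFP. The groups overlapped (log2 fold change 0.36, limma adjusted p = 0.161). Cd14 was called higher in 2 alternatives, equal recovered reads and the fit without GFP replicate 2. Under quantile normalization its log2 fold change was 0.20. Of the subunits of the phagocyte NADPH oxidase, Cybb, the membrane-bound catalytic subunit, averaged 74.03 ± 33.2 in Tbx18 and 61.6 ± 10.2 in GFP, with Tbx18 replicate 3 at about 2 times the other Tbx18 libraries. Ncf1, a cytosolic organizer of the same enzyme, was at 423, 432 and 442 in Tbx18 and at 353, 437 and 659 in GFP. Its Tbx18 libraries agreed within 1.04-fold while GFP replicate 3 stood above all others, an order unlike that of Cybb.

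To see which genes changed relative to the leukocyte signal of their own library, each was expressed as a percent of the summed counts of the 7 pan-leukocyte genes, a step that cancels the scaling. Of the 26 tested members outside that sum, 4 lay above GFP in every Tbx18 library, 4 lay below and 18 overlapped. On the same scale 7.8% of the other 11223 tested genes lay above and 25% below, so such counts are no result about the members alone. Above were Csf1r, at 33.95, 35.9 and 38.8 percent in Tbx18 and 32.6, 24.7 and 25.6 percent in GFP, and Mrc1, at 36.6, 32.98 and 41.4 percent in Tbx18 and 22.99, 27.8 and 32.4 percent in GFP, with Pf4 and Trem2. Pf4 was at 25.1, 26.3 and 33.05 percent in Tbx18 and 14.96, 23.7 and 21.7 percent in GFP. Trem2 was at 8.62, 8.41 and 8.24 percent in Tbx18 and 6.70, 7.66 and 6.76 percent in GFP.

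Below were Lyz2, C1qc, F13a1 and Fcgr2b. Lyz2 was at 58.5, 80.3 and 63.96 percent of that sum in Tbx18 and at 97.99, 103 and 106 percent in GFP, so its GFP values, which differed widely as counts, nearly coincided on this scale. C1qc was at 19.1, 23.00 and 22.6 percent in Tbx18 and at 26.1, 28.2 and 35.2 percent in GFP. F13a1 was at 12.2, 15.6 and 21.2 percent in Tbx18 and at 37.7, 33.8 and 60.4 percent in GFP, and Fcgr2b at 3.18, 2.89 and 4.06 percent in Tbx18 and at 8.48, 6.38 and 21.7 percent in GFP. Spi1, by contrast, was at 13.1, 12.5 and 11.3 percent in Tbx18 and at 14.5, 11.5 and 14.7 percent in GFP, and Cd68 at 31.2, 34.6 and 33.4 percent in Tbx18 and at 22.1, 25.5 and 31.9 percent in GFP, both overlapping. These percents are a description, were not tested, and rest on a sum made up largely of Lcp1 and Laptm5.

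**Figure D5:**
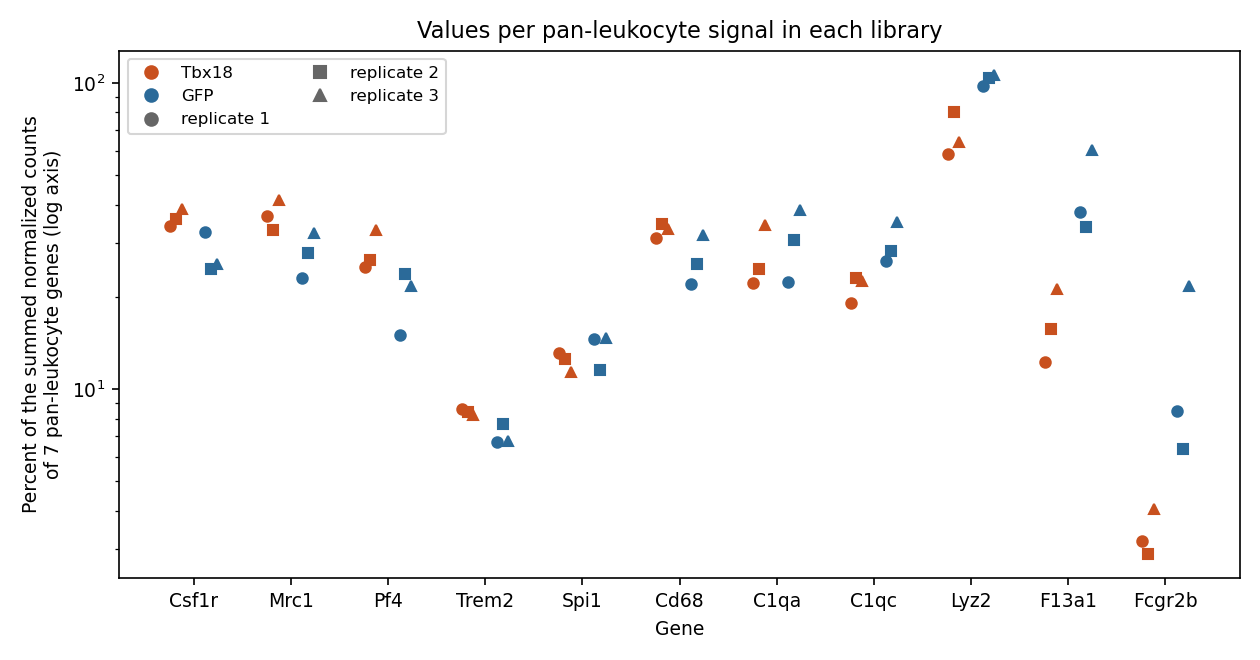
Each gene's normalized count as a percent of the summed counts of 7 pan-leukocyte genes in the same library (log axis), Tbx18 left and GFP right for each gene, with a symbol for each replicate number. Tbx18 points of Csf1r, Mrc1, Pf4 and Trem2 all lie above the GFP points, those of C1qc, Lyz2, F13a1 and Fcgr2b all lie below, and Spi1, Cd68 and C1qa overlap.

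A further list of 53 myeloid genes outside the set was read in the same libraries. Of these, 46 were found and 40 tested, of which 16 were called higher and 3 lower in Tbx18, beside 22.5% and 23.5% of all genes tested. The largest rises were those of Siglec1, a sialic acid receptor of macrophages, at 37.7, 43.03 and 79.9 in Tbx18 and 7.45, 23.5 and 9.21 in GFP (log2 fold change 2.01), and P2ry6, a nucleotide receptor of phagocytes, at 75.5, 58.4 and 102 in Tbx18 and 17.02, 20.99 and 17.3 in GFP (log2 fold change 2.00). Cytip, a scaffold protein of leukocytes, had the largest fall, at 22.1, 15.4 and 29.8 in Tbx18 and 89.4, 109.9 and 130.0 in GFP (log2 fold change -2.27), and the other two called lower, named after their values were seen, were Rac2 and Lgmn. The median log2 fold change of this list was 0.44. GFP replicate 2 was the highest of the GFP libraries for 22 of its 40 tested genes, or 55.0%.

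Most markers of other blood cells were scarce. Of 7 neutrophil genes, Mpo, Elane and Mmp8 were at 0 in all libraries and 0 genes reached the test. Among 11 T and NK cell genes, Cd3e, Cd3d, Cd5, Prf1 and Gzmb were at 0 in all libraries. Lck and Cd8a, the 2 tested, were called higher from few counts, against 22.5% of all genes tested. Lck was at 22.1, 24.6 and 27.2 in Tbx18 and 17.02, 4.94 and 10.4 in GFP. Cd8a was at 15.6, 22.5 and 18.4 in Tbx18 and 6.38, 8.64 and 1.15 in GFP. The B cell genes Ms4a1, Cd79b and Pax5 and the mast cell gene Ms4a2 were at 0 throughout. Other genes of these lists, named after their values were seen, were not. Blnk, of the B cell list, was at 33.1, 25.6 and 26.3 in Tbx18 and 6.38, 35.8 and 19.6 in GFP and was not called. Of the mast cell list, Hdc was at 8.28, 16.4 and 12.3 in Tbx18 and 1.06, 3.70 and 2.30 in GFP. Tpsab1 was at 3.68, 3.07 and 2.63 in Tbx18 and 0, 0 and 0 in GFP, and neither reached the test. Kit, which mast cells share with other cell types, was called lower, at 206, 234 and 226 in Tbx18 and 323, 277 and 313 in GFP. Of 3 tested red cell genes, Slc4a1 was called higher, against 22.5% of all genes tested. Slc4a1 was at 35.9, 27.7 and 29.8 in Tbx18 and between 1.23 and 5.32 in GFP. The globin genes Hba1 and Hba2 overlapped between the groups and were not called (limma adjusted p = 0.557 and 0.520). Hbb did not reach the test and averaged 3.12 in Tbx18 and 5.78 in GFP. The summed red cell counts were 87.4, 81.97 and 138 in Tbx18 and 38.3, 59.3 and 100.1 in GFP, a difference that came largely from Slc4a1.

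The myocyte and fibroblast markers moved with the groups, and the endothelial markers were mixed. The 10 myocyte markers summed to 461848, 470618 and 480242 counts in Tbx18 and 932025, 1034270 and 1023200 in GFP. Of these, 8 were called lower and 0 higher. For these lists, the shares over all genes tested were 23.5% lower and 22.5% higher. The 10 fibroblast markers summed to 611738, 605555 and 712004 in Tbx18 and 361636, 298564 and 312989 in GFP. The 10 endothelial markers, 5 called higher and 1 lower, summed to 2829.6, 2918 and 2961 in Tbx18 and 3190.3, 1985 and 2711 in GFP, and GFP replicate 2 was the highest GFP library for 0 of them and the lowest for 9. Of the 10 fibroblast markers, 1 was highest and 7 were lowest in GFP replicate 2. Among the GFP libraries, replicate 2 thus had the highest level of most macrophage genes and the lowest level of most endothelial markers. The part of these differences in the results for the macrophage genes was not tested.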

How the data were processed

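Expression was measured by RNA-seq in 3 Tbx18 and 3 GFP libraries, made with a stranded mRNA kit per the labels' protocols. Per the submitters' processing notes, DESeq2 1.10.1, HTSeq, STAR 2.4.0g1 and bcl2fastq 2.17.1.14 were used, in roles those notes do not assign. Not given in the sources used here are the genome build, the annotation and whether counting used strand.

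The authors deposited a signal that the labels call DESeq2-normalized counts, with 1 value per gene and library. Within a tolerance of 0.01, 100% of values were whole multiples of 1 step per library, as gene reads divided by a size factor are, which gave the reads. Of 17089 genes, 2912 were at 0 throughout.

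Groups were compared by limma-trend (limma 3.58.1, R 4.3.3) on log2(normalized count + 1) over 11230 genes (those whose mean reached 10), and called at a Benjamini-Hochberg adjusted p under 0.05 over all of them; fold changes on this scale understate those of low genes, and folds in words are ratios of group means. Alternatives were other scalings, a pseudocount of 5, other filters, a replicate block, leaving out each library, and recovered reads tested with DESeq2 1.42.0 or edgeR 4.0.16. Every member was to be accounted for, with values in every library for the called ones and for 18 listed by name whatever their result, and up to 3 called genes of each further list; per-library values of Aif1, Lcp1, Fcgr3a, Pf4 and Ncf1, the 7 motif forms and the percents of a pan-leukocyte sum were chosen after values were seen. For the myocyte, fibroblast and endothelial lists, called genes are not named as planned, and only counts and sums are given. Members and lists were chosen with earlier results of these data known. Counts of 0 are bounded by 3 reads per library, for counting error only. Promoters are from RefSeq, build GRCr8.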

Additional observations from a re-analysis of the deposited data

How the results depend on the processing

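Over 15 alternatives, the number of all genes called differed by less than 1.5 times from the 5164 of the full comparison. The number of members called higher was 5, against 22.5% of all genes tested. It was 8 under upper-quartile scaling (27.2% of all genes), 8 by DESeq2 (21.7%) and 8 with the replicate block (22.5%). Scaling to equal recovered reads gave 14 (42.6%), quantile normalization gave 3 (22.5%) and edgeR gave 6 (23.3%). When 1 library was left out, the number of higher members ran from 2 to 14, against 16.9% to 25.7% of all genes. The number called lower was 2, against 23.5% of all genes. It was 3 after quantile normalization (22.9% of all genes), where Cd37 was called as well. It was 1 with a minimum mean of 50 (25.8%), where Fcgr2b was no longer tested. When 1 library was left out it ran from 1 to 2, against 18.4% to 26.3% of all genes. No called member changed direction; over the alternatives for single members, 443 values kept their call, 30 became called and 12 lost it, and the causes were not tested. Same-numbered libraries did not deviate together in all pairs (correlations of -0.005, 0.15 and 0.02). With 3 libraries per group this cannot decide whether the numbers pair the libraries, and the labels do not say what they mark. The replicate block gave 5155 calls over all genes, in place of 5164. Members with about 10 to 40 counts, such as Il34, Cd37 and Fcgr3a, rest on few reads, and 3 libraries per group limit every comparison.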
